A study of Homo sapiens with 4 samples.

Results

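The genes described are 4 long noncoding RNAs (lncRNAs) associated with pluripotency: ESRG, LINC-ROR, MIR302CHG and LNCPRESS1. They were matched by gene symbol, and all 4 symbols were found once each among the 62696 genes of the count tables. RNA was sequenced from NT2 cells, also called NTERA-2, a human embryonal carcinoma line that resembles undifferentiated embryonic stem cells. The wild type group carried an empty vector and had 1 library, called the control. The group labelled HYDIN2 knockdown had 3 libraries, replicates 1 to 3. The knockdown method and the origin of the replicates (cultures or clones) are not given in the sources used here, so the spread between them may be technical.

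Long noncoding RNAs act without being translated, as scaffolds, decoys or hosts of smaller RNAs. Pluripotent human cells transcribe a characteristic set of them, several from copies of the endogenous retrovirus HERVH, whose long terminal repeat LTR7 is active in these cells. ESRG and LINC-ROR are transcripts of this kind. ESRG is a standard marker of the undifferentiated state. LINC-ROR was named as a regulator of reprogramming and has been described as a decoy for miR-145, a microRNA that represses pluripotency factors. MIR302CHG is the host transcript of the miR-302/367 microRNA cluster, the most abundant microRNA cluster of human pluripotent cells. LNCPRESS1 is repressed by p53 and has been described as a decoy that keeps the histone deacetylase SIRT6 away from pluripotency genes.

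The microRNAs carried by MIR302CHG are shown because their shared seed defines which messenger RNAs they can pair with. MIR302CHG (ENSG00000249532.6) is annotated in GENCODE 29 (GRCh38) on chromosome 4, minus strand, from 112646476 to 112650051, within LARP7 on the other strand. The 5 hairpins of the cluster lie inside it. Its 3 annotated transcripts leave 4 of these hairpins wholly in introns, while 45 of the 73 bases of the MIR302B hairpin fall in an exon. The mature 3p sequences from RefSeq (GRCh38.p14) are given 5′ to 3′, in the order of transcription, with bases 2 to 8, the seed, in capitals.
hsa-miR-302b-3p: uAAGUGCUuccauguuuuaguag
hsa-miR-302c-3p: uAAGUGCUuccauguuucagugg
hsa-miR-302a-3p: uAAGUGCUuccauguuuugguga
hsa-miR-302d-3p: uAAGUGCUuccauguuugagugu
hsa-miR-367-3p: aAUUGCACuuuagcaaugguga
The 4 miR-302 sequences share 1 seed, and miR-367 has another. Of the mature microRNAs that RefSeq lists, 12 carry the seed AAGUGCU, among them miR-372-3p and miR-373-3p of another pluripotency cluster. The seed of miR-367-3p is shared by 6 names, which include miR-25-3p and miR-92a-3p.

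**Figure D1:**
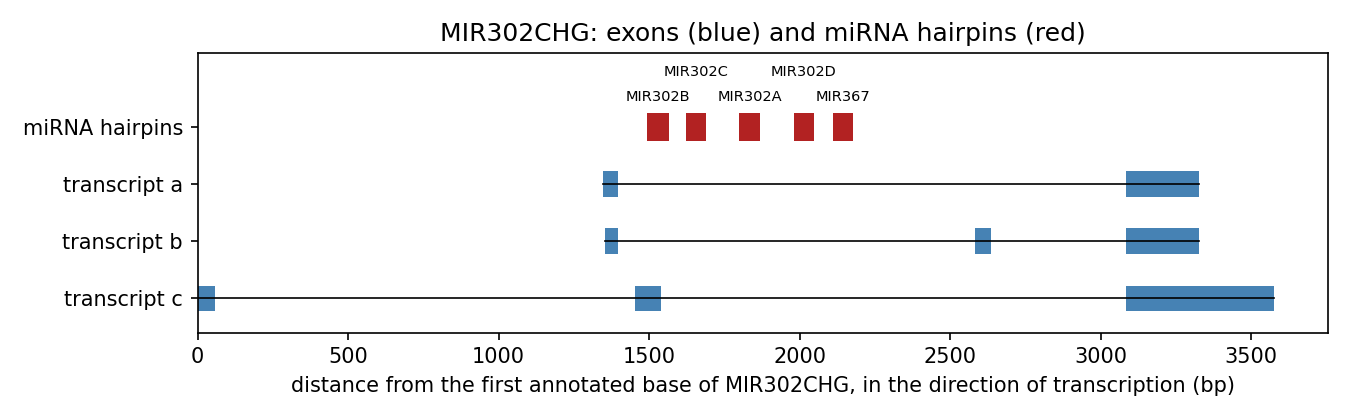
Map of MIR302CHG to scale, with distance from its first annotated base in bp on the x axis. Blue boxes are exons of the 3 annotated transcripts and red boxes the 5 microRNA hairpins; the MIR302B hairpin partly overlaps an exon and the other hairpins do not.

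RefSeq gives promoter windows of 300 bases for 2 starts of MIR302CHG, the host of the cluster. They are printed because this member was lower in each labelled knockdown library. The motifs searched, on both strands, were the octamer ATTTGCAT bound by OCT4, the SOX core ACAAAG, and the TATA box letters TATAAA. Matches are in capitals.
MIR302CHG upstream start (chr4:112650002-112650301, minus strand): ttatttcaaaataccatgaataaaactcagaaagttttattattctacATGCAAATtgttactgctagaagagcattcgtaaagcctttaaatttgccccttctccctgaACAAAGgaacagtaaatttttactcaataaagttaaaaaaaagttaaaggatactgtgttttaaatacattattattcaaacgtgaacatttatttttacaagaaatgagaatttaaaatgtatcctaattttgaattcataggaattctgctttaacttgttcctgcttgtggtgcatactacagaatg
MIR302CHG downstream start (chr4:112648654-112648953, minus strand): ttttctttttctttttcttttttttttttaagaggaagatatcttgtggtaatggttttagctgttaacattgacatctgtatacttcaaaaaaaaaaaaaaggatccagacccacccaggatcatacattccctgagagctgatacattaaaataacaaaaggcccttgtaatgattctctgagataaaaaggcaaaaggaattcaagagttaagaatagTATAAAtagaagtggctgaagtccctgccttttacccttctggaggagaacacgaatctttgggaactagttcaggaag
The upstream window held the octamer on the strand opposite to the gene and the SOX core on its own strand, with no overlap between them. The octamer occurs in 1.77% of the 35116 promoter windows of the table and the SOX core in 16.1%. The downstream window held TATAAA beginning 29 bases before the start, a motif found in 11.5% of the windows. LNCPRESS1 had 1 SOX core in its window. These matches describe letters in the windows and are not measured binding sites.

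ESRG and LINC-ROR both hold sequence that other genes carry too, which the choice of members did not use. ESRG (ENSG00000265992.1) lies on chromosome 3 at 54632122 to 54639857, minus strand, in a span that CACNA2D3 covers on the other strand, and its single annotated transcript has 4 exons and 3140 nt. LINC-ROR (ENSG00000258609.3) lies on chromosome 18 at 57054558 to 57072119, minus strand; the longest of its 8 annotated transcripts has 2604 nt. Over stretches of at least 100 nt and 90% identity, ESRG matched the longest transcripts of 35 other genes, which covered 35.3% of its length. LINC-ROR matched 24 genes over 16.0% of its length. Reads from these stretches may fit more than 1 gene, which was not measured, so the ESRG and LINC-ROR counts may be uncertain to that extent. MIR302CHG and LNCPRESS1 (ENSG00000232301.3; chromosome 7, 101299578 to 101301346, plus strand) had no such match.

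A seed match to miR-145-5p (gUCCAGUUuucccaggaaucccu, seed in capitals) was also searched in the longest transcripts, since LINC-ROR has been described as its decoy. The letters AACTGGA, the complement of that seed, did not occur in the LINC-ROR transcript and occurred once in ESRG, from base 1717 (aaaactccaaaAACTGGAatctggccctc). Of lncRNA transcripts within 20% of the length of LINC-ROR, 22.1% hold these letters. The other annotated LINC-ROR transcripts, and shorter or imperfect sites, were not searched, so the described decoy role was not tested. Sites complementary to the miR-302 and miR-367 seeds were found in none of the longest transcripts of the 4 members. Of lncRNA transcripts within 20% of a member's length, 7.95% to 37.7% hold the miR-302 site, depending on the member. For the miR-367 site the share was 3.69% to 17.8%, so absence is the more common outcome.

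Library totals ran from 25181737 to 62904698 counts, the control having the fewest. Counts were scaled to CPM (counts relative to library size) with TMM factors, and each library was compared with the control on the log2 CPM scale with a prior count of 2. The targeted gene does not check the labels: HYDIN2 had 12 counts in the control and 150, 112 and 11 in the labelled knockdown replicates 1, 2 and 3, so its level was higher in replicates 1 and 2. The column headers of the count tables also name other constructs, a LacZ control and sets of GKAP_KIF27, where the sample labels name an empty vector and HYDIN2. Every direction given here is therefore that of libraries labelled knockdown. Replicates 1 and 2 were close, with 0.302% of 15880 genes at least 2-fold apart, while replicate 3 stood apart. In replicate 3, 13.1% of genes lay at least 2-fold below both other replicates and 6.20% at least 2-fold above both. POU5F1, NANOG and LIN28A, named as a check of the cell type, were expressed in all 4 libraries. They ran at 19.4 to 42.8, 323 to 820 and 1912 to 3620 CPM, each lowest in replicate 3. The pluripotency list they come from was not uniform. ZFP42 had 2 to 4 counts per library, and SALL4 was highest in replicate 3, at 304 CPM. Of the 17 tested genes of that list, 11 were lowest in replicate 3, as were 6780 of all 15880 genes tested.

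Between members, levels were compared per kilobase of the longest transcript. ESRG was highest in every library, at 402 to 713 CPM per kb. MIR302CHG followed at 5.35 to 12.8 CPM per kb, then LINC-ROR at 0.258 to 2.69 and LNCPRESS1 at 0.222 to 0.384. The order was the same in all 4 libraries. In replicate 3 the last pair did not differ beyond counting error: LINC-ROR had 0.258 CPM per kb (95% interval 0.126 to 0.468) and LNCPRESS1 had 0.222 (0.0457 to 0.647). Intervals of a level are exact Poisson intervals, and those of a ratio exact binomial intervals, on counts divided by 2, since most counts above 0 were even, a sign that each pair may have been counted by both mates. They cover counting error only.

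**Figure D2:**
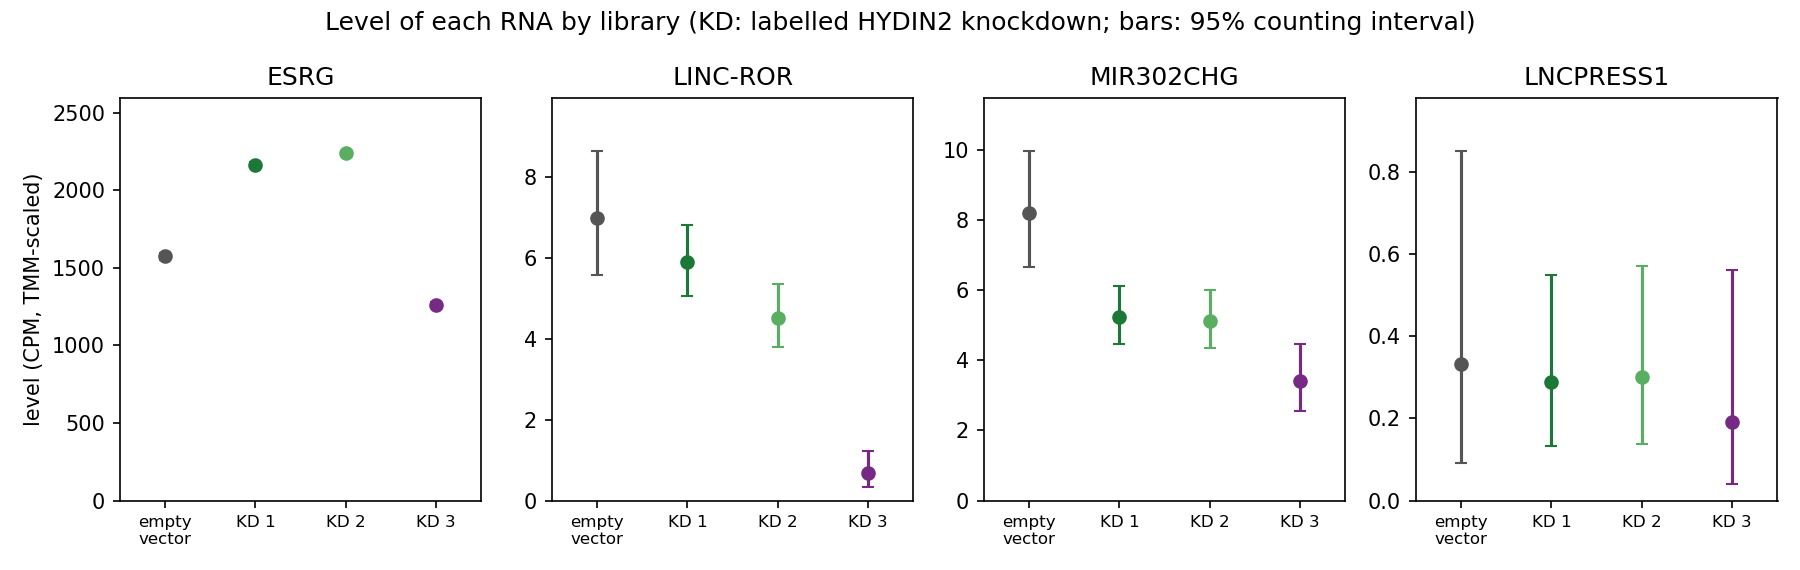
Level in CPM (y axis, from 0, a separate scale per panel) of each member in the control and the 3 labelled knockdown libraries, with 95% counting intervals. ESRG is highest in replicates 1 and 2; the other members are highest in the control and lowest in replicate 3.

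MIR302CHG was lower than in the control in each labelled knockdown library. It had 197 counts in the control, or 8.21 CPM, and 327, 306 and 107 counts in replicates 1, 2 and 3, or 5.25, 5.13 and 3.43 CPM. Replicates 1 and 2 were alike, replicate 3 was lowest, and the control lay above all 3, as it did for 34.2% of all genes tested (it lay below all 3 for 30.1%). The ratio to the control was 0.640 for replicate 1, with a 95% interval of 0.495 to 0.830. It was 0.625 for replicate 2 (interval 0.482 to 0.813) and 0.417 for replicate 3 (interval 0.293 to 0.588), so all 3 intervals lay below 1. Such intervals set single libraries side by side. The labelled knockdown libraries averaged 4.60 ± 1.02 CPM (SD, n = 3), and the mean log2 difference was -0.85 ± 0.34 (SD, n = 3). With trends on transcript length and GC content removed it was -0.52, with -0.69 in the lowest library, so that MIR302CHG was then 2-fold below the control in no library. In bulk RNA, fewer cells that make a transcript and less transcript per cell cannot be told apart.

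LINC-ROR was also lower in each labelled knockdown library, by very different amounts. It had 168 counts in the control, or 7.0 CPM, and 367, 270 and 21 counts in replicates 1, 2 and 3, or 5.89, 4.52 and 0.672 CPM. The control again lay above all 3 (34.2% of all genes), but replicate 3 alone carried most of the difference. The ratio to the control was 0.842 in replicate 1 (0.647 to 1.1), which includes 1, and 0.646 in replicate 2 (0.489 to 0.859). In replicate 3 it was 0.0961 (0.0453 to 0.183), and against replicate 1 the ratio of replicate 3 was 0.114 (0.0549 to 0.212). The mean log2 difference, -1.39 ± 1.66 (SD, n = 3), was smaller than its spread. Without replicate 3, with the scaling recomputed, it was -0.48.

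ESRG did not move in 1 direction. It had 37782 counts in the control, or 1574 CPM. Replicates 1 and 2 were higher, at 2165 and 2240 CPM, and replicate 3 was lower, at 1261 CPM, so the control lay within the range of the other group. Of all genes tested, 35.6% likewise had no single direction. The ratios to the control were 1.38 for replicate 1, 1.42 for replicate 2 and 0.801 for replicate 3, with no interval that included 1. On average the log2 difference was 0.22 ± 0.47 (SD, n = 3), smaller than its spread, and without replicate 3 it was 0.44. ESRG ranked between 17th and 47th among all genes by CPM and was the most abundant of the 1561 lncRNA genes tested in every library.

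LNCPRESS1 was near the limit of detection. It had 8 counts in the control and 18, 18 and 6 in replicates 1, 2 and 3, which is 0.333, 0.289, 0.302 and 0.192 CPM. All 3 ratios, 0.867, 0.905 and 0.576, had intervals that included 1, and at this depth a difference could not be detected. Its log2 difference averaged -0.33 ± 0.30 (SD, n = 3), and 0.04, the opposite direction, after removal of both trends.

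The counts of ESRG and LINC-ROR did not keep 1 ratio across libraries; reads that fit more than 1 gene were not separated. ESRG had 225 times the CPM of LINC-ROR in the control, 367 and 495 times in replicates 1 and 2, and 1876 times in replicate 3. In replicate 3, 21 counts of LINC-ROR stood beside 39388 counts of ESRG.

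By the rule that a gene lies at least 2-fold from the control in the same direction in each labelled knockdown library, 0 of the 3 members with a mean CPM of at least 1 passed. Over the 15880 genes with that mean, 3.65% passed as higher and 2.72% as lower. LNCPRESS1 was below this minimum. Of the 3 members above it, MIR302CHG and LINC-ROR were lower in all 3 libraries by any amount, as were 34.2% of all genes and 22% of lncRNA genes. Both were lower in all 3 libraries and lowest in replicate 3, as 20.6% of all genes were. Whatever the other replicates did, 6780 of the 15880 genes were lowest in replicate 3. Both members were also at least 2-fold below the control in replicate 3, as 15.9% of all genes were. For MIR302CHG this 2-fold difference was lost with the trends removed. LINC-ROR was at least 2-fold lower in replicate 3 than in both other replicates, which held for 13.1% of all genes and 17.9% of lncRNA genes.

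edgeR's quasi-likelihood test took the spread from the labelled knockdown libraries and assumed that the lone control varies like them. It called 0 of 26029 genes (0% at a Benjamini-Hochberg adjusted p under 0.05), with 3023 genes (11.6%) at an unadjusted p under 0.05. MIR302CHG had a fitted log2 fold change of -0.83 (edgeR, unadjusted p = 0.0975, adjusted p = 0.495). The adjusted p from edgeR was 0.820 for ESRG, 0.765 for LINC-ROR and 0.906 for LNCPRESS1. Without replicate 3, the spread is that between replicates 1 and 2 alone and 44.7% of 25016 genes were called. Of the 25016, 21.2% were called lower and 23.5% higher. There the edgeR adjusted p was 0.000278 for MIR302CHG (lower in 2 of 2 libraries), 0.028 for LINC-ROR (lower in 2 of 2) and 2.9e-07 for ESRG (higher in 2 of 2). Over the other alternatives, the adjusted p of these members ran from 0.470 to 1.

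**Figure D3:**
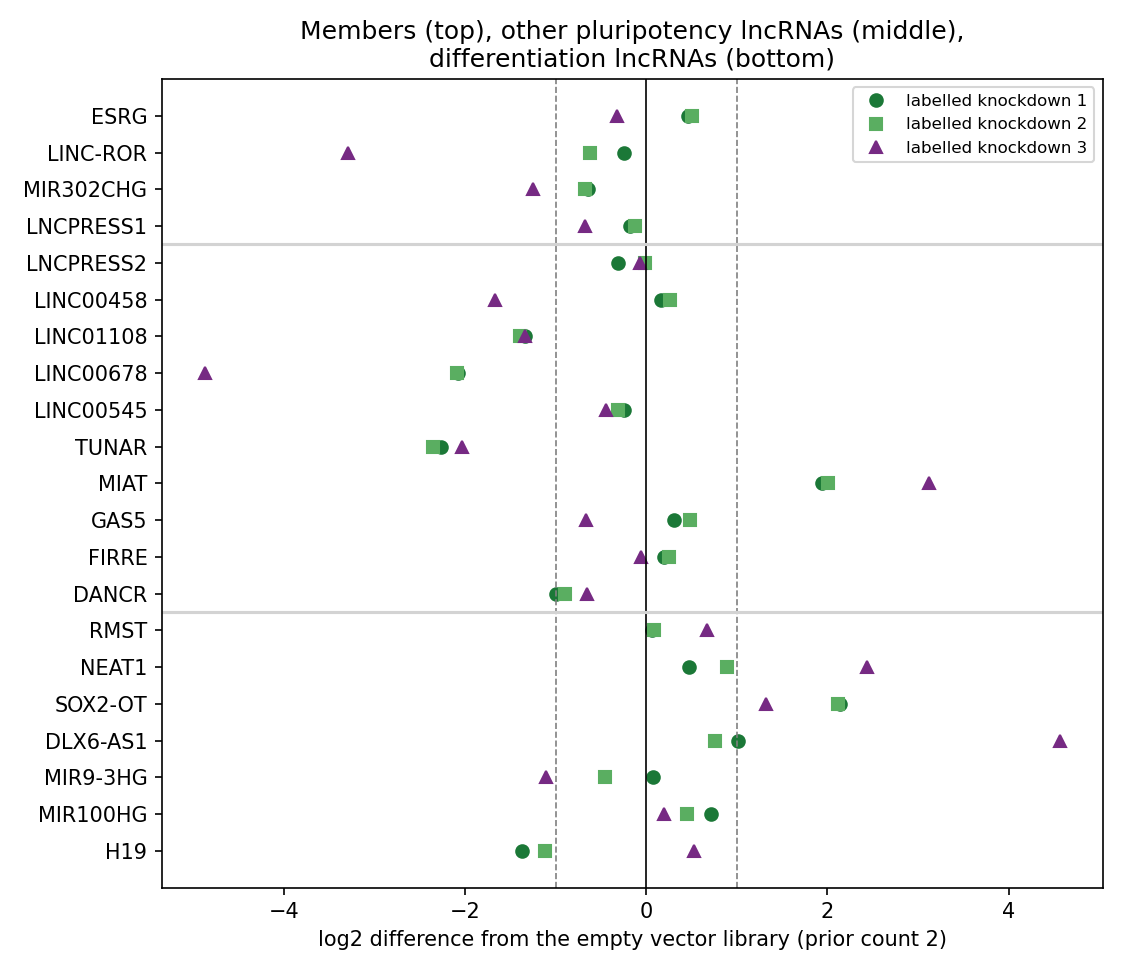
Log2 difference from the control (x axis) of each labelled knockdown library (circle, square and triangle for replicates 1, 2 and 3), with dashed lines at 2-fold. The members are above the first grey line, other pluripotency lncRNAs below it, and differentiation lncRNAs below the second.

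Other lncRNAs described in pluripotent cells were mixed. Of 10 listed, 9 had a mean CPM of at least 1; 2 were lower and 1 higher by the 2-fold rule, beside 2.72% and 3.65% of all genes. The median log2 difference over the 9 was -0.33, beside -0.02 for all genes tested. With length and GC trends removed these medians were -0.03 and -0.0026. LINC00678, an embryonic stem cell lncRNA, had 23.8 CPM in the control and 5.61, 5.54 and 0.768 CPM in replicates 1, 2 and 3. Like LINC-ROR it was lowest by far in replicate 3. TUNAR, which has been tied to pluripotency and neural differentiation, had 65.8 CPM against 13.6, 12.8 and 16.1 CPM, with replicate 3 no lower than the others. MIAT, a nuclear lncRNA also known in neurons, had 1.71 CPM against 6.67, 6.99 and 15.3 CPM and was highest in replicate 3.

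Of 13 lncRNAs tied to differentiation, 7 were tested and 1 passed the 2-fold rule, as higher (3.65% of all genes did). SOX2-OT, which overlaps SOX2, had 9.25 CPM in the control and 40.8, 40.4 and 23.2 CPM in replicates 1, 2 and 3. The median over the 7 was 0.45, and 5 were higher in all 3 libraries, beside 30.1% of all genes. No difference between the lists was tested.

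Genes that share sequence with ESRG or LINC-ROR were listed with their values, a list drawn from the alignments after the counts were known. Of the genes matching ESRG other than members, 33 had a row in the count tables and 19 were tested. Replicate 3 lay at least 2-fold below both other replicates in 10 of the 19. The same held for 9 of the 12 tested genes that matched LINC-ROR. The shares to set beside these are 13.1% of all genes and 17.9% of lncRNA genes. Most genes of the LINC-ROR set are also in the ESRG set, LINC02617 among them. The counts for the sets therefore overlap and are not separate results. For the ESRG set the medians of the log2 difference were -0.10, -0.06 and -1.31 in replicates 1, 2 and 3, beside 0.03, 0.05 and -0.15 for all genes. LINC00678 shared 254 nt with ESRG at 93.3% identity. LINC02617, with the longest match to LINC-ROR (415 nt at 91.8%), had 52 counts in the control, 112 and 116 in replicates 1 and 2, and 0 in replicate 3. A 0 allows up to 3 counts if counts are independent, and more if pairs were counted by both mates. PPIAP46, a pseudogene, went the other way, with 399 counts in replicate 3 against 47, 47 and 38 in the control and replicates 1 and 2. LINC02617 and PPIAP46 were singled out after their values were seen. Sharing of reads among these genes was not measured, and reads that fit more than 1 of them were not separated. The genes may therefore not be independent of each other.

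**Figure D4:**
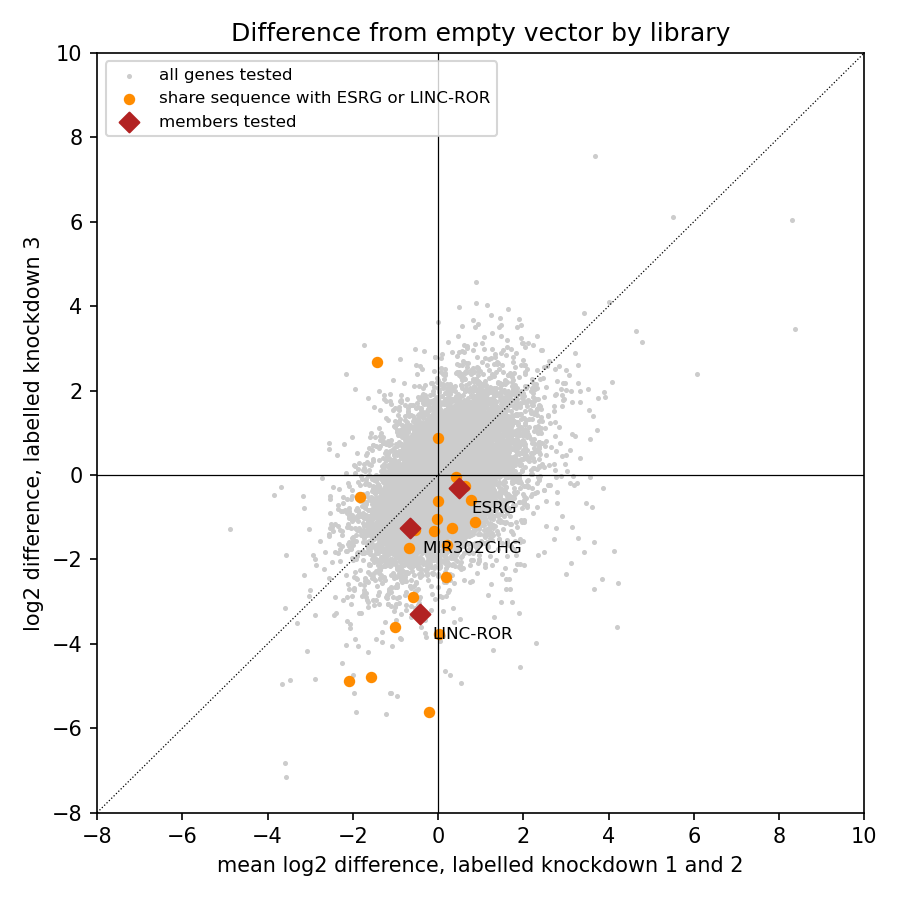
Log2 difference from the control, as the mean of labelled knockdown replicates 1 and 2 (x axis) and in replicate 3 (y axis), for all genes tested (grey), genes sharing sequence with ESRG or LINC-ROR (orange) and the members tested (red). Most orange points and LINC-ROR lie below the dotted line of equal difference.

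The genes around the members did not share 1 pattern. LARP7, a small nuclear RNA-binding protein gene that runs opposite to MIR302CHG, had 39.7 CPM in the control and 38.1, 42.4 and 27.8 CPM in replicates 1, 2 and 3. ZGRF1, 9481 bp from MIR302CHG on the same strand, had log2 differences of 0.51, 0.47 and 0.52. CACNA2D3, the calcium channel subunit gene that covers ESRG on the other strand, had 11.4 CPM against 24.4, 23.8 and 6.66 CPM, higher in replicates 1 and 2 and lower in replicate 3, as ESRG was. EMSLR, an lncRNA 7000 bp from LNCPRESS1, had 26.9 CPM against 44.8, 45.3 and 13.1 CPM. The nearest genes of LINC-ROR had between 0 and 4 counts in each library. The libraries were made strand-specific, but the strand setting of the counting is not given in the sources used here, so reads of overlapping genes on opposite strands may have been mixed.

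The rows of the microRNA genes themselves were empty: MIR302A to MIR302D and MIR367 had 0 counts in all 4 libraries. This allows up to 3 counts in each if counts are independent, and more if pairs were counted by both mates. Mature microRNAs are shorter than the fragments such total RNA libraries hold, so mature miR-302 was not measured. Of 16 genes described as targets of the miR-302 seed family, all were tested; 3 were higher and 0 lower by the 2-fold rule, beside 3.65% and 2.72% of all genes. The median log2 difference over the 16 was 0.04, and 0.14 with length and GC trends removed. LEFTY2, an inhibitor of NODAL signalling, had 5.79 CPM in the control and 21.2, 20.2 and 17.4 CPM in replicates 1, 2 and 3. NR2F2, a nuclear receptor of differentiating cells, had 0.916 CPM against 2.96, 2.31 and 7.04 CPM. LATS2, a kinase of the Hippo pathway, had 15.4 CPM against 36.2, 33.7 and 40.4 CPM; with the trends removed its smallest log2 difference was 0.99 and it no longer passed. The other 13 did not pass.

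For LNCPRESS1, 10 genes of the p53 and SIRT6 axis were tested, with 1 higher (3.65% of all genes), 1 lower (2.72%) and a median log2 difference of 0.10, or 0.21 with the trends removed. TP53INP1, a p53 target of the stress response, had 5.62 CPM in the control and 13.9, 15.1 and 17.6 CPM in replicates 1, 2 and 3. FDXR, a mitochondrial reductase that p53 can induce, had 10.3 CPM against 3.55, 3.13 and 3.04 CPM. These named targets of p53 thus lay on opposite sides of the control.

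Among 17 tested protein-coding genes of pluripotency, 0 were higher and 1 was lower by the 2-fold rule, beside 3.65% and 2.72% of all genes. DNMT3B, a DNA methyltransferase of pluripotent cells, had 795 CPM in the control and 340, 350 and 349 CPM in replicates 1, 2 and 3; scaled to total counts its smallest difference was -0.99 and it no longer passed. The median log2 difference of the 17 was 0.03 over the 3 libraries. In replicate 3 alone it was -0.57, beside -0.15 for all genes tested. There 13 of the 17 lay below the control, as did 9011 of the 15880 genes tested. MIR302CHG and LINC-ROR were lowest in replicate 3 too, and a link was not tested.

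Markers of other cell types did not follow 1 pattern across the libraries: the endoderm and mesoderm sums were highest in replicate 3, where MIR302CHG and LINC-ROR were lowest, and the other sums were not. The summed level of 6 endoderm markers was 7.91 CPM in the control, 14.1 and 12.5 CPM in replicates 1 and 2, and 26.1 CPM in replicate 3; FOXA2 was at 0 except for 2 counts in replicate 3, and GATA4 had 2.37 CPM against 4.61, 4.14 and 11.3 CPM. GATA6 and CXCR4 were highest in replicate 3 too, at 7.43 and 6.21 CPM. The sum of 5 mesoderm markers was 8.71 CPM, then 5.94, 5.01 and 20.4 CPM, with TBXT at 0 in replicates 1 and 2. MIXL1 and EOMES were highest in replicate 3, at 8.39 and 7.49 CPM, and TBX6 was highest in the control, at 4.08 CPM. Neural markers (8 genes) summed to 190 CPM in the control and 361, 339 and 321 CPM in the replicates. Most of this came from NES, at 167 CPM against 291, 274 and 270 CPM, which did not pass. Of 5 tested, 2 passed as higher, beside 3.65% of all genes. DCX had 11.7 CPM against 28.7, 27.5 and 11.5 CPM, so it was not higher in replicate 3. SOX1, NEUROG2 and NEUROD1 had at most 19 counts in any library, and NEUROD1 was highest in the control, at 4 counts. PAX6, a neural transcription factor, had 0 counts in the control and 957, 784 and 92 in the replicates, and MAP2, a neuronal cytoskeleton gene, had 9.16 CPM against 24.0, 22.8 and 34.5 CPM. With the trends removed the smallest log2 difference of MAP2 was 0.74 and it no longer passed. Trophoblast markers (6 genes) summed to 117 CPM against 264, 253 and 214 CPM, with TFAP2C the largest part in the control and replicates 1 and 2. TFAP2C had 83.4 CPM against 180, 174 and 67.4 CPM, and KRT7 had 7.17 CPM against 11.4, 12.3 and 4.45 CPM. Both were below the control in replicate 3. GATA3 was higher in all 3 libraries without passing, and HAND1 alone of the 4 tested passed as higher (3.65% of all genes did). CGA had 2 counts, in the control only, and CGB3 was at 0 throughout. Fibroblast markers (6 genes) summed to 644 CPM against 650, 647 and 518 CPM, most of it from VIM and COL1A1; COL1A2 ran from 11.4 to 36.9 CPM and DCN had at most 2 counts. The part of these markers in the levels of the members was not tested.

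The genes most like each member across the 4 libraries were taken as those with the smallest Euclidean distance between log2 CPM profiles centred on their own means, which describes 4 values and nothing more. For LINC-ROR the nearest were LY75, C2orf80 and LINC02041, at distances of 0.14, 0.28 and 0.34, and only 1 gene lay within 0.25. For MIR302CHG the nearest were TMEM143, TLCD1 and RPL4P4, at 0.033, 0.034 and 0.042, and 400 genes lay within 0.25. For ESRG they were PARN, EMC3 and YPEL5, with 663 genes within 0.25, and for LNCPRESS1 SEPTIN10, TUSC3 and CDKN2AIP, with 1050 genes within 0.25. Candidates were the 14815 tested genes with a symbol, members left out. The distance is not scaled to the size of the differences. A profile with large differences, as for LINC-ROR, therefore tends to have fewer genes within 0.25 than a flatter one. These numbers of genes do not show how unusual the pattern of a member is. The LNCPRESS1 profile rests on 6 to 18 counts per library, so its neighbours are uncertain. Those of LINC-ROR were near the floor in replicate 3, with LY75 at 0.192, C2orf80 at 0.128 and LINC02041 at 0.288 CPM.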

How the data were processed

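Raw gene counts of the 4 libraries were used as deposited. Per the submitters' processing notes, the authors used STAR 2.7.11b and featureCounts 2.0.6 with GRCh38; the annotation release and strand setting are not given in the sources used here. Per the labels' protocols, the libraries were strand-specific, from total RNA depleted of ribosomal RNA. Totals ran from 25181737 to 62904698 counts. Of 62696 genes, 58269 matched GENCODE 29.

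TMM factors (edgeR 4.0.16, R 4.3.3) came from genes passing filterByExpr, and log2 CPM used a prior count of 2. Since the control group is a single library, the main reading was a 2-fold difference in the same direction in each labelled knockdown library, among genes with a mean CPM of at least 1; an exact permutation test of 1 library against 3 cannot give a p below 0.25. In simulated counts for this comparison, 200 genes of at least 5 CPM were changed 4-fold. The rule recovered 88.5% of them among 15999 genes and edgeR 31.5% among 25958. Counts were drawn for each gene and library independently, so a shift of many genes together, as in replicate 3, was not simulated. How many unchanged genes each method called was not tested, so these shares do not rank the methods. Recovery at lower levels, such as that of LNCPRESS1, or at smaller folds was not tested. edgeR's quasi-likelihood test, DESeq2 1.42.0 and limma 3.58.1 (voom) were also run, with Benjamini-Hochberg adjustment. Counting intervals are 95% exact Poisson or binomial intervals. Longest GENCODE 29 transcripts were aligned with blastn. A direct alignment between members is not reported here.

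The members and gene lists were chosen with earlier results of these data known. Beside the members, HYDIN2, their neighbours and the 3 nearest profiles of each, genes were named by rule: up to 4 per list that passed the 2-fold rule, or the 3 of highest CPM where none did. POU5F1, NANOG and LIN28A were named as a check of the cell type, with SALL4 as a gene of that list with another pattern. Named as genes at or near 0 were ZFP42, FOXA2, TBXT, SOX1, NEUROG2, NEUROD1, CGA, CGB3 and DCN. NES, DCX, TFAP2C, KRT7 and GATA3 were named to show what made up the marker sums. LINC02617 and PPIAP46 were chosen after their values were seen. Alternatives were other scalings, prior counts, minimum CPM values and folds, removal of length and GC trends (lowess span 0.3), and leaving out each replicate.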

Additional observations from a re-analysis of the deposited data

How the results depend on the processing

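ESRG, LINC-ROR and MIR302CHG kept the direction of their mean log2 difference under all alternatives run. The mean log2 difference of LNCPRESS1 was 0.044 with length and GC trends removed, and the cause was not tested. Leaving out each labelled knockdown replicate in turn gave 0.06 to 0.44 for ESRG, -1.97 to -0.48 for LINC-ROR, -0.98 to -0.70 for MIR302CHG and -0.43 to -0.19 for LNCPRESS1. With trends removed MIR302CHG was at -0.52. With trends removed, 1 protein-coding pluripotency gene and 2 trophoblast markers passed as higher, against 0 and 1 without. Scaling to total counts moved the median of all genes to 0.07.

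Counts of genes 2-fold higher were 1605 at a minimum mean CPM of 0.1, 377 at 5 and 1590 for 1.5-fold, and 578 to 1425 when a replicate was left out. Counts of genes 2-fold lower were 1035, 254 and 1526 for the same settings, 224 with trends removed, and 517 to 939 when a replicate was left out; the highest of each range is without replicate 3. DESeq2 called 271 genes where edgeR called 0, and limma voom called 0. When a replicate was left out, edgeR called 17 to 11177, the highest without replicate 3, where the spread comes from replicates 1 and 2 alone. No paired analysis was possible because 1 control library without a number leaves no pairs. With 8 counts in the control, depth limits LNCPRESS1 most.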
